A study of Rattus norvegicus with 6 samples.

Results

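NF-kB survival and feedback targets are a group of 10 genes chosen by name: the adhesion and surface genes Icam1 and Cd83, the ubiquitin ligase genes Birc2 and Birc3 with their adaptor genes Traf1 and Traf2, and the genes Tnfaip2, Tnfaip3, Tnip1 and Cflar. Each gene was read from the probe set with 1 gene symbol and the highest mean signal, and 7 of the 10 were measured, each by a single such probe set, among 29214 probe sets and 14506 named genes in all. No probe set with 1 gene symbol was matched to Traf1, Tnfaip2 or Tnfaip3, which were not analysed here.

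The study used RBL-2H3, a rat basophilic leukaemia line that serves as a mast cell model, stably overexpressing wild-type Dectin-1, a receptor for beta-glucans on the cell surface. All 6 arrays came from such cells. There were 2 arrays of unstimulated control cells, 2 of cells given curdlan, an insoluble beta-glucan, and 2 of cells pretreated with R406, an inhibitor of the kinase Syk, before curdlan was added. No arrays of cells given R406 alone or lacking Dectin-1 were among them, so an effect of R406 on the curdlan response and one on unstimulated cells cannot be told apart. The sources used here give neither doses nor times, nor whether the line was 1 clone. The labels do not say that the 2 arrays of each treatment were grown as independent cultures, so every p-value measures the spread between these arrays only, and that spread may be technical.

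Dectin-1 signals through Syk to an adaptor complex of Card9, Bcl10 and Malt1, which activates the I-kappa-B kinase and so releases NF-kB dimers to the nucleus. Many NF-kB target genes then act back on the pathway or on cell survival. Birc2 and Birc3 proteins are ubiquitin ligases that bind Traf2 at TNF receptors, the Cflar protein c-FLIP blocks caspase activation there, and Tnip1 and Tnfaip3 proteins restrain NF-kB signalling at ubiquitin chains. Icam1 protein binds leukocyte integrins, and Cd83 protein is best known from mature dendritic cells.

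Values are log2 signals as the authors normalized them, and a difference is one of group means with its standard error (SE) or 95% confidence interval from a limma fit over all probe sets. A gene was called where its Benjamini-Hochberg adjusted p, over all 29214 probe sets, was under 0.05. Signals are compared between arrays and within a probe set, since probe sets differ in how strongly they respond. Array medians lay between 7.204 and 7.241.

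Marker lists of mast cells and of other cells were summed over the linear signals of their probe sets, and each sum was compared between arrays. The 14 measured mast cell markers summed to between 108436 and 108738 in control, 109816 and 110858 in curdlan and 110546 and 110798 in R406 plus curdlan arrays, so the controls lay below all other arrays. The unadjusted limma p was under 0.05 for 4 of these 14 with curdlan, 3 under R406 against curdlan and 2 against control. Of all probe sets that held for 14.4%, 22% and 20.4%. Of the 14 markers, limma called 1, the serotonin synthesis gene Tph1, which is named after its values were seen. Tph1 rose by 0.72 with curdlan and fell by 0.69 under R406 against curdlan (limma, adjusted p = 0.0295 and 0.0123). The rise was not called without any 1 of the 6 arrays (adjusted p between 0.0844 and 0.165), and the fall was not called without either curdlan or either R406 plus curdlan array (between 0.0602 and 0.0995).

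The 14 markers of macrophages, dendritic cells and neutrophils summed to between 1464 and 1499 in control, 1440 and 1486 in curdlan and 1423 and 1431 in R406 plus curdlan arrays, with the R406 arrays lowest. The 6 measured lymphocyte markers summed to between 454 and 459, 420 and 459, and 430 and 432 in the same order, with the R406 arrays below the controls and within the curdlan range. The 11 markers of fibroblasts, endothelium and epithelia summed to between 3515 and 3524, 3458 and 3511, and 3538 and 3588, with the curdlan arrays lowest and the R406 arrays highest. The part of these shifts in the results for the NF-kB genes was not tested. Of the markers of these other cells, limma called 0 in any comparison. An unadjusted p under 0.05 was found for 0 of the 14 macrophage, dendritic cell and neutrophil markers in any comparison, and for at most 1 of the 6 and 3 of the 11 in the other lists. Clec7a, the rat gene of Dectin-1, differed by 0.15 ± 0.0931 (SE) with curdlan and Syk by -0.12 ± 0.0452 (limma, adjusted p = 0.556 and 0.31). Under R406 against curdlan they differed by -0.10 ± 0.0931 and 0.07 ± 0.0452 (limma, adjusted p = 0.604 and 0.446). The mean Clec7a signal was 7.14, at percentile 48.8 of all probe sets, although the cells overexpressed Dectin-1. Whether this probe set reads the overexpressed receptor was not tested.

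The group split under these treatments. Icam1 rose with curdlan and fell under R406, Birc3 fell under R406 to below the control level, and Tnip1 rose under R406. Only the falls of Icam1 and Birc3 against curdlan were called under every setting tried. The calls of the Icam1 rise, of Birc3 below the control and of Tnip1 were each lost under some settings, given below. Birc2, Traf2, Cflar and Cd83 passed no comparison. The plot of signals by array shows the 3 groups for each gene.

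**Figure D1:**
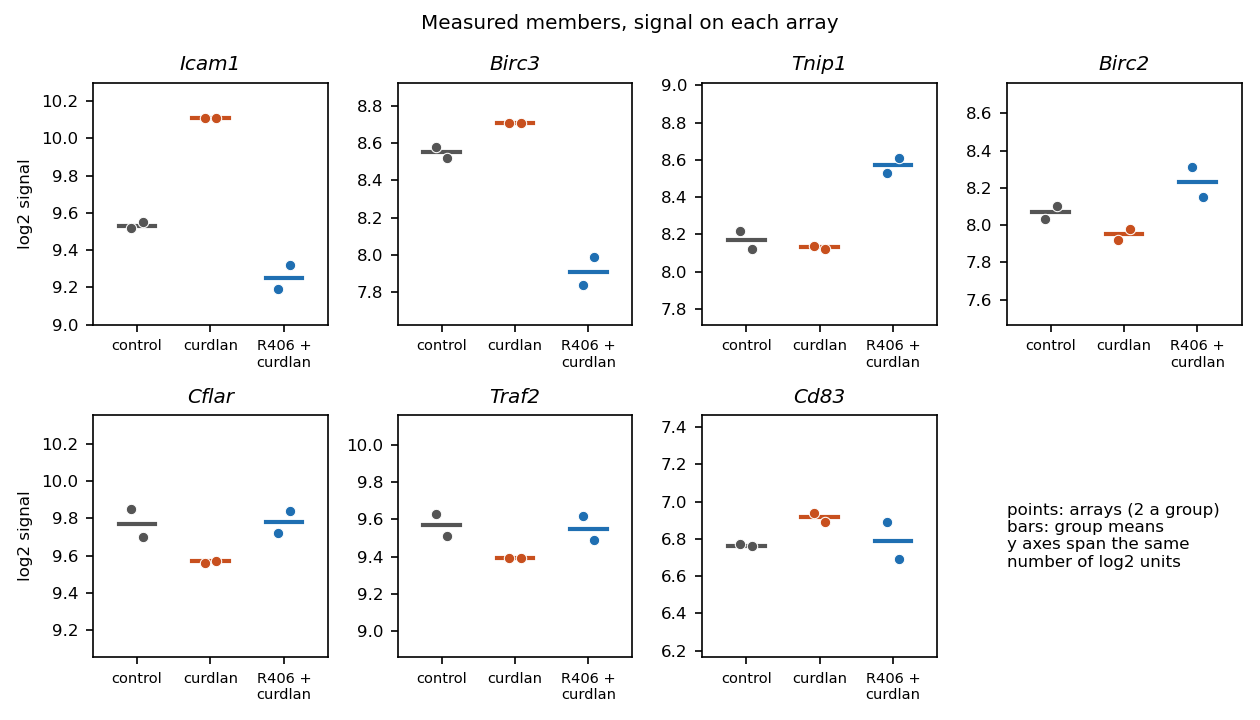
Log2 signal (y axis) of the 7 measured genes in control, curdlan and R406 plus curdlan cells (x axis); points are arrays, bars are group means; the y axes span the same number of log2 units. Icam1 is highest with curdlan at 10.11, Birc3 is lowest under R406 at 7.84 and 7.99, and Tnip1 is highest under R406 at 8.53 and 8.61.

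Icam1 (probe set 10908319) encodes an adhesion molecule whose promoter is a classical target of NF-kB. Its RefSeq promoter on the plus strand of the build GRCr8, chr8:27829595-27829844, is shown because Icam1 was the 1 member called with curdlan. The 250 bases end just before the annotated start of the gene. Capitals mark GGAAATTCC, a match to GGANNNTCC at 218 to 210 bases before the start, and a match to GGGNNNNNCC on the minus strand at 185 to 176 bases before it.
Icam1 promoter: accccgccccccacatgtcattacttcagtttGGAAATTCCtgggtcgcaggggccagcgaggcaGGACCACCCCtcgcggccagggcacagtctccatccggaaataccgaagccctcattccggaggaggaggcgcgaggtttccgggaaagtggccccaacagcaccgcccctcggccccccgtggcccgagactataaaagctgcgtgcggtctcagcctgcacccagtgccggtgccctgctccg

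The search covered both strands of the window from 250 bases before to 50 after each start. Of all 33469 such windows, 8.25% held GGANNNTCC, a motif added after the Icam1 window had been read, and 47.3% held GGGNNNNNCC. The kappa-B consensus, whose matches are also matches to GGGNNNNNCC, was found in 7.51% of windows and did not match in that of Icam1. A match or its lack is a description of letters only.

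The Icam1 signal was 9.52 and 9.55 on the control arrays, 10.11 and 10.11 with curdlan, and 9.19 and 9.32 with R406 plus curdlan. The 3 groups did not overlap, and the curdlan arrays were highest and the R406 arrays lowest. With curdlan Icam1 rose by 0.57 ± 0.06 (SE), or 1.49-fold, with an interval of 0.42 to 0.73 (limma, adjusted p = 0.0267). Without each of the 6 arrays in turn the rise lay between 0.56 and 0.59 but was not called, with adjusted p between 0.0699 and 0.162. A fit of the 4 arrays compared did not call it either (adjusted p = 0.0699). Under R406 plus curdlan Icam1 fell by 0.86 ± 0.06 against curdlan alone, to 55.2% of that level on the linear scale (limma, adjusted p = 0.00376). That fall was called in all 6 fits without 1 array, with adjusted p between 0.0204 and 0.037. Against the control the R406 level differed by -0.28 ± 0.06, which was not called (limma, adjusted p = 0.0898).

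Cd83 (probe set 10797811) encodes a glycoprotein of the immunoglobulin superfamily. Its mean signal was 6.82, at percentile 43.3 of all probe sets and below every array median, so a lack of change is hard to read. The control arrays read 6.77 and 6.76, the curdlan arrays 6.94 and 6.89, and the R406 plus curdlan arrays 6.89 and 6.69. The curdlan arrays lay above both controls, while the R406 arrays spanned the control level and one of them came within 1e-05 log2 units of a curdlan array. With curdlan the difference was 0.16 with an interval of -0.04 to 0.35 (limma, adjusted p = 0.457), and under R406 against curdlan it was -0.13 with an interval of -0.33 to 0.07 (limma, adjusted p = 0.414). The Cd83 promoter window held 3 positions of the kappa-B consensus, from 1 base before the annotated start to 33 bases after it.

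Birc3 (probe set 10914799) and Birc2 (probe set 10914788) encode related inhibitor-of-apoptosis ligases and lie next to each other on chromosome 8, with 0 protein-coding genes between them in the RefSeq table of GRCr8. The Birc3 signal was 8.58 and 8.52 in control, 8.71 and 8.71 in curdlan, and 7.84 and 7.99 in R406 plus curdlan arrays. The groups did not overlap, and both R406 arrays lay more than 0.5 log2 units below both controls. Against curdlan alone Birc3 fell by 0.79 ± 0.0648 (SE) under R406, to 57.7% of that level, with an interval of -0.96 to -0.63 (limma, adjusted p = 0.00562). This call was made in all 6 fits without 1 array (adjusted p between 0.0236 and 0.0448). Against the control Birc3 fell by 0.64 ± 0.0648, to 64.3% of the control level (limma, adjusted p = 0.0203). The fall below control was not called without any 1 of the 6 arrays (adjusted p between 0.0626 and 0.137), nor in the fit of the 4 arrays compared (0.0626), though its size stayed between -0.71 and -0.56. With curdlan alone the Birc3 difference was 0.16, with an interval of -0.01 to 0.32, and was not called (limma, adjusted p = 0.376).

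Birc2 was called in none of the comparisons. Its signal was 8.03 and 8.10 in control, 7.92 and 7.98 in curdlan, and 8.31 and 8.15 in R406 plus curdlan arrays. Its R406 arrays were the highest and its curdlan arrays the lowest, with no overlap between groups. The difference under R406 against curdlan was 0.28 with an interval of 0.10 to 0.47 (limma, adjusted p = 0.093). With curdlan it was -0.12 with an interval of -0.30 to 0.07 (limma, adjusted p = 0.557), and between R406 plus curdlan and control 0.17 with an interval of -0.02 to 0.35 (limma, adjusted p = 0.275). Whether the change of Birc2 differs from that of its neighbour Birc3 was not tested.

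Traf2 (probe set 10843483), which encodes the adaptor that recruits both ligases to TNF receptors, read 9.63 and 9.51 in control, 9.39 and 9.39 in curdlan, and 9.62 and 9.49 in R406 plus curdlan arrays. The curdlan arrays lay below all other arrays, and the control and R406 arrays overlapped. The difference was -0.18 with curdlan, with an interval of -0.35 to -0.01 (limma, adjusted p = 0.326), 0.16 under R406 against curdlan (adjusted p = 0.254) and -0.02 between R406 plus curdlan and control (adjusted p = 0.901).

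Tnip1 (probe set 10742692) encodes a ubiquitin-binding partner of the Tnfaip3 protein. Its promoter on the minus strand of chromosome 10 in GRCr8, chr10:39584962-39585211, is shown because Tnip1 held matches to the kappa-B consensus and rose where Icam1 and Birc3 fell. The sequence runs 5′ to 3′ on the gene's own strand. Capitals mark 3 overlapping positions of the consensus at 86 to 75 bases before the start.
Tnip1 promoter: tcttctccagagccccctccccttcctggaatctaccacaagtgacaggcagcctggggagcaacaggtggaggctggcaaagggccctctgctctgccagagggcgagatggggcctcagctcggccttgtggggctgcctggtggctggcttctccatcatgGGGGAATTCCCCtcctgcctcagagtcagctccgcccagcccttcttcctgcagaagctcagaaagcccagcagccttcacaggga

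Of the 10 members, 9 had a promoter window in the RefSeq table. The kappa-B consensus was found in 3 of these, those of Tnip1, Cd83 and Tnfaip3, and in 7.51% of all windows. GGGNNNNNCC was found in 7, all but those of Birc2 and Cflar, and in 47.3% of all windows. GGANNNTCC was found in 3, those of Traf1, Tnfaip3 and Icam1, and in 8.25% of all windows.

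The Tnip1 signal was 8.22 and 8.12 in control, 8.14 and 8.12 in curdlan, and 8.53 and 8.61 in R406 plus curdlan arrays. Control and curdlan arrays overlapped and both R406 arrays lay above them. Under R406 Tnip1 rose by 0.44 ± 0.058 (SE) against curdlan, or 1.36-fold, with an interval of 0.29 to 0.59 (limma, adjusted p = 0.0178). It rose by 0.40 ± 0.058 against the control, or 1.32-fold (limma, adjusted p = 0.0432). With curdlan the difference was -0.04, with an interval of -0.18 to 0.11 (limma, adjusted p = 0.844). The rise against curdlan was called without either control array, but not without curdlan replicates 1 and 2 (adjusted p = 0.0902 and 0.0872) or R406 plus curdlan replicates 1 and 2 (0.0918 and 0.13). The rise against the control was not called in any of the 6 fits (adjusted p between 0.0943 and 0.252), nor after quantile normalization (0.0522) or in the fit of the 4 arrays compared (0.0943).

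Cflar (probe set 10923580) encodes c-FLIP, a catalytically inactive relative of the caspase encoded by Casp8, and lies beside Casp8 on chromosome 9 with 0 protein-coding genes between them. Its signal was 9.85 and 9.70 in control, 9.56 and 9.57 in curdlan, and 9.72 and 9.84 in R406 plus curdlan arrays. The curdlan arrays were the lowest, and the control and R406 arrays overlapped. The difference was -0.21 with curdlan, with an interval of -0.39 to -0.02 (limma, adjusted p = 0.302), and 0.22 under R406 against curdlan, with an interval of 0.03 to 0.40 (adjusted p = 0.177). For Casp8 itself (probe set 10923595) the R406 level fell by 0.46 ± 0.0482 against the control (limma, adjusted p = 0.0224). This call was lost without any 1 of the 6 arrays (adjusted p between 0.0623 and 0.194), and for Cflar the same difference was 0.01 with an interval of -0.18 to 0.20.

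**Figure D2:**
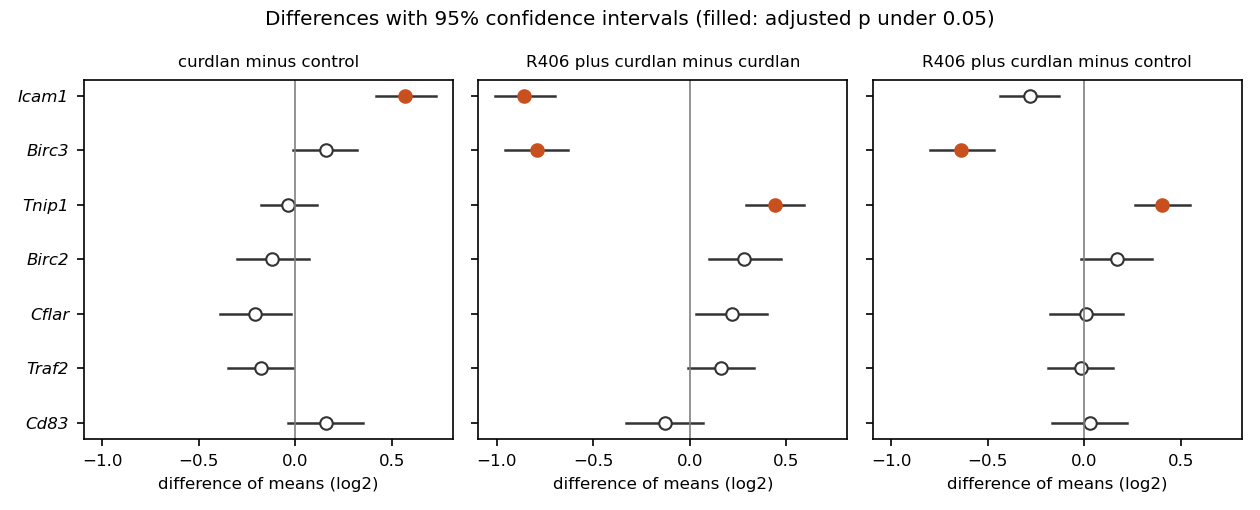
Differences of group means in log2 units (x axis) of the 7 genes (y axis) in the 3 comparisons; lines are 95% confidence intervals and filled points have an adjusted p under 0.05. Icam1 is called with curdlan at 0.57, Icam1, Birc3 and Tnip1 under R406 against curdlan at -0.86, -0.79 and 0.44, and Birc3 and Tnip1 under R406 against control at -0.64 and 0.40.

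Counted together, 1 of the 7 genes rose and 0 fell with curdlan. Of all probe sets 1.59% were called in that comparison, 1.04% higher and 0.551% lower. Under R406 against curdlan 1 of the 7 rose and 2 fell, where 7.25% of probe sets were called, 4.02% higher and 3.23% lower. Against the control 1 rose and 1 fell under R406, where 2.23% were called, 1.44% higher and 0.791% lower. An unadjusted p under 0.05 was found for 3, 5 and 3 of the 7 genes in these comparisons, and for 14.4%, 22% and 20.4% of probe sets. The comparisons share arrays, so their counts are not independent, and 7 genes are too few to read a share from.

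Groups of 2 arrays often do not overlap. Curdlan and control arrays did not overlap for 6 of the 7 genes, 3 higher and 3 lower, against 43.1% of all probe sets, 19.2% higher and 23.9% lower. For R406 plus curdlan against curdlan that held for 7 of 7, 4 higher and 3 lower, and for 53.3% of probe sets, 27.7% higher and 25.6% lower. Of the 3 lower, Cd83 was apart by only 1e-05 log2 units, in effect a tie. R406 plus curdlan and control arrays did not overlap for 4 of 7, 2 in each direction, and for 53.5% of probe sets, 25.7% higher and 27.8% lower. The median difference of the 7 was -0.04 with curdlan, 0.16 under R406 against curdlan and 0.01 against control, beside medians of -0.011, -0.002 and -0.010 over all probe sets. In size without sign the medians were 0.16, 0.28 and 0.17 for the 7 genes and 0.076, 0.097 and 0.096 for all probe sets. Only 1.5% of probe sets had a larger difference in size with curdlan than Icam1. Under R406 against curdlan 1% exceeded Icam1, 1.23% exceeded Birc3 and 5.2% exceeded Tnip1.

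Of 31 genes listed as other NF-kB targets, 8 rose and 0 fell with curdlan, and 0 rose and 10 fell under R406 against curdlan. Whether each is a target of NF-kB in these cells was not tested, and 17 of the 31 had a mean signal above the median of all probe sets. Of all probe sets, 1.04% were called higher and 0.551% lower with curdlan, and 4.02% and 3.23% under R406 against curdlan. This list and those below were chosen with earlier results of these data known, so their counts carry no test. The chemokine gene Ccl2, the early response gene Ier3, the cytokine gene Tnf and the kinase gene Plk3 rose with curdlan by 3.77 ± 0.0613, 1.41 ± 0.0548, 1.40 ± 0.0763 and 1.02 ± 0.0438 (SE; limma, adjusted p between 0.000402 and 0.00503). Under R406 against curdlan these 4 genes fell, with differences of -4.39, -3.30, -2.70 and -3.31 in the same order (limma, adjusted p between 6.09e-05 and 0.000346). Under R406 against control 0.791% of all probe sets were called lower, and as for Birc3 this held for 7 of the 31 genes. Among them Plk3, Ier3, the prostaglandin synthase gene Ptgs2 and Tnf differed from the control by -2.30, -1.89, -1.37 and -1.30 (limma, adjusted p between 0.000513 and 0.00681). Ptgs2 had a difference of 0.04 ± 0.0547 with curdlan (limma, adjusted p = 0.833). The rise of Tnf was not called without either control array or either curdlan array (adjusted p between 0.0597 and 0.0696). Its fall below the control was not called without control replicates 1 and 2 (0.0817 and 0.0844), and that of Ptgs2 without either control or either R406 plus curdlan array (between 0.052 and 0.0587). The other calls given here for Ccl2, Ier3, Plk3, Tnf and Ptgs2 were made in every fit without 1 array. The median difference of the 31 was 0.04 with curdlan, -0.10 under R406 against curdlan and -0.09 against control.

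Of 8 measured NF-kB subunit and I-kappa-B genes, 2 rose with curdlan: Nfkbia, the gene of the main I-kappa-B inhibitor, by 0.74 ± 0.044 and Nfkbiz, a nuclear I-kappa-B gene, by 1.79 ± 0.073 (limma, adjusted p = 0.00591 and 0.00215). Both fell under R406 against curdlan, with differences of -0.43 ± 0.044 and -1.90 ± 0.073 (limma, adjusted p = 0.00918 and 0.000829). For Nfkbia the rise was not called without either control or either curdlan array (adjusted p between 0.0597 and 0.077), nor its fall without either curdlan or either R406 plus curdlan array (between 0.0571 and 0.0934). Nfkbia was still 0.31 ± 0.044 above the control under R406 (limma, adjusted p = 0.0432), a call lost without any 1 of the 6 arrays (adjusted p between 0.0936 and 0.237), and Nfkbiz was at -0.11 ± 0.073 (adjusted p = 0.442). The subunit genes Rela, Nfkb1 and Nfkb2 differed by -0.02, 0.21 and 0.02 with curdlan and by 0.12, -0.17 and 0.05 under R406 against curdlan, and none was called (limma, adjusted p between 0.194 and 0.93). Nfkbib, Nfkbie and Bcl3, further I-kappa-B genes, differed by -0.05, -0.01 and -0.16 with curdlan and by 0.01, 0.04 and -0.13 under R406 (adjusted p between 0.306 and 0.955). Median differences of the 8 were 0.00, -0.06 and 0.03 in the 3 comparisons. Of all probe sets, 1.04% were called higher with curdlan and 3.23% lower under R406 against curdlan.

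Upstream, limma called 0 of the 13 measured genes of the adaptor and I-kappa-B kinase list with curdlan, where 5 had an unadjusted p under 0.05. Of all probe sets, 1.59% were called with curdlan and 14.4% had an unadjusted p under 0.05, while 3.23% were called lower under R406 against curdlan. Card9 and Bcl10 were among the 13, while Malt1 was not analysed here. Under R406 against curdlan 1 of the 13 fell, a gene read from the brighter of its 2 probe sets. This was Map3k14, whose kinase product is degraded through Traf2 and the Birc2 and Birc3 ligases, at -0.33 ± 0.0633 (limma, adjusted p = 0.0445), and the call was lost without any 1 of the 6 arrays (adjusted p between 0.0724 and 0.215). Among 22 measured genes listed as TNF receptor adaptors and ubiquitin enzymes, limma called 0 with curdlan and 5 had an unadjusted p under 0.05. Zfp36, counted in this list, encodes a protein that promotes mRNA decay and not an adaptor or ubiquitin enzyme. Under R406 against curdlan 2 of the 22 fell, the adaptor gene Traf4 at -0.61 ± 0.0534 and Zfp36 at -0.65 ± 0.0472 (limma, adjusted p = 0.00651 and 0.00409). Neither call was made without R406 plus curdlan replicates 1 and 2, with adjusted p of 0.0607 and 0.0689 for Traf4 and 0.0566 and 0.0538 for Zfp36. Median differences of this list were 0.02 with curdlan and -0.10 under R406.

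With curdlan 1.59% of all probe sets were called and 14.4% had an unadjusted p under 0.05, and 7.25% were called under R406 against curdlan. Among 8 other measured inhibitor-of-apoptosis and caspase genes, limma called 0 with curdlan (1 with an unadjusted p under 0.05) and 1 under R406 against curdlan. That gene, the executioner caspase gene Casp6, rose by 0.31 ± 0.0559 (limma, adjusted p = 0.0389), a call lost without any 1 of the 6 arrays (adjusted p between 0.0757 and 0.187).

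Of 14 measured adhesion and costimulation genes beside Icam1 and Cd83, 1 rose with curdlan, and under R406 against curdlan 1 rose and 2 fell. Tnfsf9, a ligand gene of the TNF family, rose by 0.51 ± 0.0603 with curdlan (limma, adjusted p = 0.0345; between 0.106 and 0.186 without each array in turn) and fell by 0.66 ± 0.0603 under R406 (adjusted p = 0.00732; 0.0664 and 0.0563 without R406 plus curdlan replicates 1 and 2). Icam2, a relative of Icam1, rose under R406 by 0.52 ± 0.0533 where Icam1 fell (limma, adjusted p = 0.00952), a call lost without either curdlan or either R406 plus curdlan array (between 0.0536 and 0.0907). Itgam, which encodes the alpha chain of an integrin that binds Icam1 protein, fell by 0.36 ± 0.0661 under R406 (limma, adjusted p = 0.0408; between 0.0589 and 0.206 without each array in turn). The median difference of the list was 0.00 under R406 against curdlan. Of all probe sets, 1.04% were called higher with curdlan, and 4.02% higher and 3.23% lower under R406 against curdlan.

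**Figure D3:**
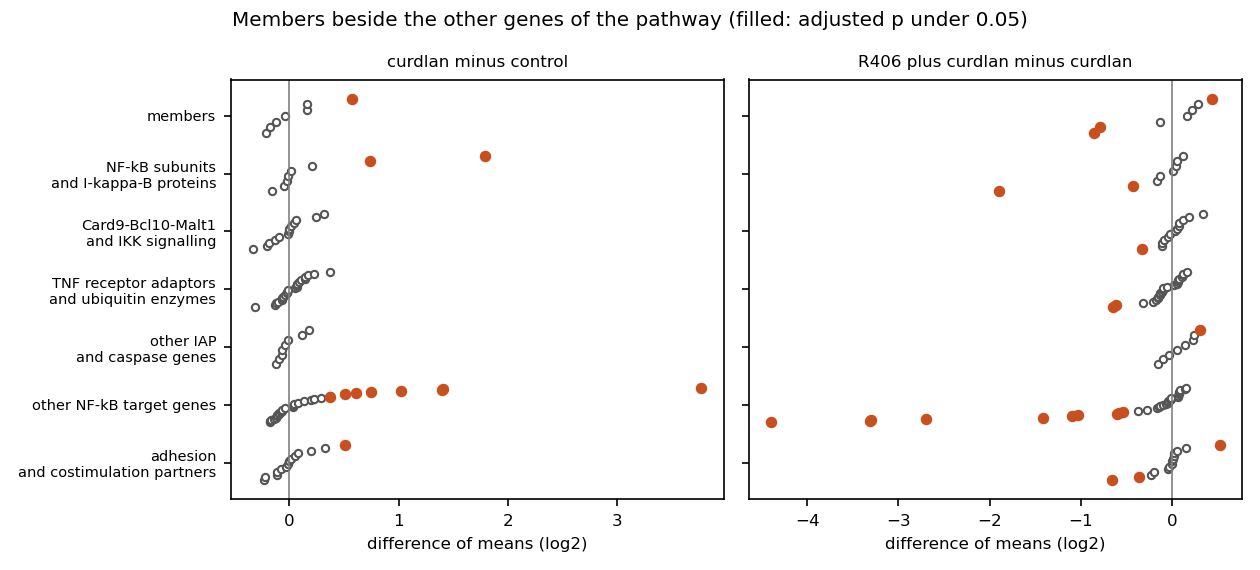
Differences of group means in log2 units (x axis) for the measured genes of each list (y axis), with curdlan on the left and R406 plus curdlan against curdlan on the right; each point is a gene and filled points have an adjusted p under 0.05. The members lie between -0.21 and 0.57 with curdlan and between -0.86 and 0.44 under R406, while other NF-kB target genes reach 3.77 and -4.39.

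The genes whose signals ran most like those of the 3 called members were found by the distance between their 6 centred log2 values. Nearest to Icam1 were Nt5dc3, Fosl2, which encodes a subunit of AP-1, and Tp53rkb, at distances of 0.0536, 0.109 and 0.127 log2 units, against a length of 0.879 for the Icam1 pattern itself. Nt5dc3 differed by 0.56 with curdlan and -0.85 under R406 against curdlan, as did Fosl2. Nearest to Birc3 were the co-chaperone gene Bag2, the circadian clock gene Per2 and Eaf1, at 0.0834, 0.0989 and 0.101 against a length of 0.847. Per2 differed by 0.13 with curdlan and by -0.82 under R406. Nearest to Tnip1 were the mitotic kinase gene Ttk, Dennd6a and Zer1, at 0.0614, 0.0624 and 0.0726 against a length of 0.497. Ttk differed by -0.02 with curdlan and by 0.44 under R406. These are the closest of all named genes over 6 arrays in 3 groups, chosen for their likeness, so they carry no test.

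**Figure D4:**
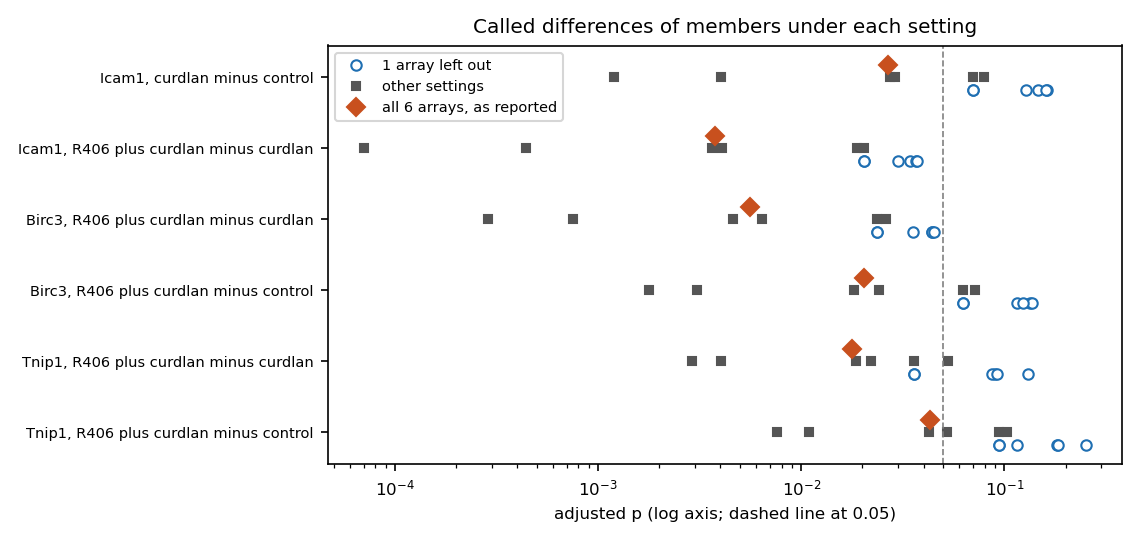
Adjusted p (x axis, log scale) of the 6 differences called among the members (y axis); diamonds are the fit of all 6 arrays, circles are fits without 1 array, and squares are 6 other settings. The Icam1 and Birc3 differences under R406 against curdlan stay below 0.05 throughout, while the circles of the Icam1 rise with curdlan and of both differences against control lie above it.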

How the data were processed

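Per the labels' protocols, RNA for the 6 arrays was isolated with a Roche kit and its cDNA carried biotin. The authors deposited log2 signals for each probe set. The submitters' processing notes name Affymetrix Expression Console, while its version, background correction, between-array method and genome build are not given there. The log2 base was inferred from the deposited values, whose maxima lay between 14.37 and 14.41. For arrays, the number of arrays limits the precision.

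The platform annotation named 1 gene for 15310 probe sets. It gave 323 more than 1 symbol and left 13581 unnamed. No column belonged to another sample. All 6 arrays were fitted in 1 limma model of the 3 groups with lmFit and eBayes of limma 3.58.1 under R 4.3.3, with 3 residual and 2.16 prior degrees of freedom, without filter or further normalization. The fit was first run on simulated arrays with independent noise and few changed probe sets. Such a run cannot show whether the real arrays of a group are independent. Arrays of 1 group correlated at 0.9975 to 0.9981, and arrays of different groups at 0.9939 to 0.9967. Replicate numbers were not used in this fit.

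The members and gene lists were chosen with earlier results of these data known. Named were the members, Clec7a, Syk, all measured NF-kB subunit and I-kappa-B genes, up to 4 called genes of each list and comparison with the largest change, and the 3 genes nearest in pattern to each called member. Alternatives were quantile normalization, median centring, a filter on dim probe sets, a fit of the 4 arrays compared, an intensity trend, the replicate number as a block, and each array left out. Averaging several probe sets of a gene was not run, since each measured member had 1. The named gene Map3k14 had 2, and its dimmer probe set was not read. Promoters, neighbours and synonyms came from RefSeq tables of GRCr8, and no genome was used. Protein sequences were not used here.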

Additional observations from a re-analysis of the deposited data

How the results depend on the processing

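The deposited arrays gave 21 differences of members, and over the alternatives 208 of 249 recomputed values kept their direction and their side of the threshold, 30 lost a call, 3 gained one and 8 changed sign. The falls of Icam1 and Birc3 under R406 against curdlan were called in all 6 fits without 1 array and in all 6 other settings. The gained calls were Birc2 under R406 against curdlan among brighter probe sets (adjusted p = 0.0277, limma) and Icam1 under R406 against control there and with an intensity trend (0.023 and 0.022). Members called with curdlan numbered 0 of 7 in the fit of 4 arrays, 0 with the replicate block and 0 without any array (limma; 5, 2 and 1 to 5 with an unadjusted p under 0.05). Under R406 against control they numbered 1 after quantile normalization, 0 in the fit of 4 arrays, 0 with the replicate block and 0 without any array (3, 3, 3 and 3 to 4 unadjusted). Probe sets called with curdlan, under R406 against curdlan and against control numbered 465, 2118 and 652 as reported, 1572, 3717 and 2278 above the median signal, 1557, 3767 and 2341 with an intensity trend, 68, 1232 and 182 in fits of 4 arrays, 102, 1129 and 62 with the replicate block, and 32 to 68, 210 to 1232 and 15 to 182 without 1 array. Fits with fewer arrays or with the block have fewer residual degrees of freedom; the cause of the other shifts was not tested.

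The replicate numbers were not shown to pair the arrays: same-numbered deviations correlated at -0.115 between control and curdlan, -0.00454 between control and R406 plus curdlan, and 0.113 between curdlan and R406 plus curdlan. With the replicate block the call of Tnip1 under R406 against curdlan was lost (0.441, adjusted p = 0.0527, limma).

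All 22 changes of sign were in differences not called before or after, of at most 0.0804 in size. After quantile normalization the values were -0.00305 for Nfkb2 with curdlan, -0.000701 for Nfkbie under R406 against curdlan, and -0.037 for Cflar and -0.0185 for Nfkbie against control. After median centring they were 0.00511 for Traf2 and 0.012 for Map3k14 against control. Without 1 array the ranges with curdlan were -0.0864 to 0.0142 for Tnip1, -0.0322 to 0.0683 for Nfkb2, -0.0702 to 0.0437 for Nfkbie, -0.0158 to 0.0881 for Ptgs2 and -0.0527 to 0.00905 for Rela. Under R406 against curdlan they were -0.0206 to 0.0465 for Nfkbib and -0.0193 to 0.0946 for Nfkbie. Against control they were -0.0743 to 0.127 for Cd83, -0.0658 to 0.0828 for Cflar, -0.0804 to 0.18 for Clec7a, -0.0622 to 0.0365 for Map3k14, -0.0122 to 0.061 for Nfkbie and -0.0821 to 0.0426 for Traf2. Of the calls of other named genes, 4 of 7 with curdlan, 6 of 14 under R406 against curdlan and 2 of 8 against control were made in every fit without 1 array.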
